A study of Mus musculus with 4 samples.

Results

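The genes described here encode the receptor chains for interleukin (IL)-12, IL-18, IL-27 and interferon (IFN)-γ, together with *Stat4*, *Tyk2* and *Jak2*, which act directly below the IL-12 receptor. All non-control probes of the arrays whose gene name is 1 of these 10 symbols were taken, which gave 13 probes for 10 of the 27376 gene names. The study set CD8αβ+ intraepithelial lymphocytes (IELs), taken from the small intestine, against CD8αβ+ splenocytes (SPLs), and measured 2 samples per group on 1-color Agilent arrays, 1 array per sample. All samples came from male wild-type mice, on a C57BL/6 background according to the methods and 8 to 12 weeks old according to the labels. The cells of each sample were pooled from several mice, sorted as CD45+ CD3+ CD8α+ CD8β+ TCRβ+ and lysed without culture, so each sample is a mean over animals. Of the 2 slides, slide 1 held IEL replicate 1 beside SPL replicate 2, and slide 2 held IEL replicate 2 beside SPL replicate 1.

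IL-12 is bound by a pair of chains, encoded by *Il12rb1* and *Il12rb2*, whose associated kinases TYK2 and JAK2 phosphorylate the transcription factor STAT4. IL-18 is bound by the chain encoded by *Il18r1* and signals once the accessory chain encoded by *Il18rap* has joined it, and in activated CD8+ T cells IL-12 and IL-18 together induce IFN-γ without antigen. IFN-γ itself is bound by the IFNGR1 chain, while IFNGR2 brings JAK2 to the complex, and IL-27 acts through IL27RA paired with the shared chain gp130.

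The promoter bases of *Il12rb2* and *Il18r1* are shown because these genes had the highest and the lowest fitted difference between IELs and SPLs, and because, of the 8 member genes with a promoter entry, they held a match to the GAS letters, TTCNNNGAA, to which STAT proteins can bind. Capitals mark each match in the 250 bases before the RefSeq gene start on GRCm38.p6, written 5′ to 3′ on the strand of the gene. The *Il12rb2* window is chr6:67376189-67376438 on the minus strand, with 1 match that starts at position -123 from the gene start. The *Il18r1* window is chr1:40465756-40466005 on the plus strand, the last of 3 start sites listed for this gene, with matches at positions -219 and -152 from it.
Il12rb2: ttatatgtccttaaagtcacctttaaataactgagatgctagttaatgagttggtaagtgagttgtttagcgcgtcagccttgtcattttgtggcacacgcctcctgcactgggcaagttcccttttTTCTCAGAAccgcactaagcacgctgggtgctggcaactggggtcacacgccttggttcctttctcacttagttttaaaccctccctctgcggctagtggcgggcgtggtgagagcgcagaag
Il18r1: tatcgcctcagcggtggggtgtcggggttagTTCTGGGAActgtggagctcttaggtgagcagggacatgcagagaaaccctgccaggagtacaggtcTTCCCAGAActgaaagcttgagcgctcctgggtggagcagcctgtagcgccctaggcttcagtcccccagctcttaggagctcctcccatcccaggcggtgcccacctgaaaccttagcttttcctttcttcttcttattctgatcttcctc
*Il12rb1* and *Il27ra* had no entry and were not searched. The search covered both strands and found the letters in 2 of 11 windows of 8 member genes, whereas 7.02% of all 32851 windows of this length held them. The T-box letters AGGTGTGA were in 0 of the 11 windows and in 1.12% of all windows. A match describes letters and is not evidence of binding.

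Each array value reads only the stretch of transcript under a 60-base probe, and 4 probes are shown as examples of what was measured, 1 for a chain of each of the IL-12, IL-18 and IFN-γ receptors and 1 for a kinase. Each is printed in lower case, as the array design gives it.
Il12rb2 probe: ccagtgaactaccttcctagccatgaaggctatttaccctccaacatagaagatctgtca
Il18rap probe: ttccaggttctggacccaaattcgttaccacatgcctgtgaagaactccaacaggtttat
Ifngr2 second probe: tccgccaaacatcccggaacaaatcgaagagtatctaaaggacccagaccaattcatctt
Jak2 second probe: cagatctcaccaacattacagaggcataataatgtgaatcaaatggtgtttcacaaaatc
On the mm9 build used by the arrays' annotation, they lie at chr6:67242362-67242421 for *Il12rb2*, chr1:40605729-40605788 for *Il18rap*, chr16:91561992-91563144 for *Ifngr2* and chr19:29363211-29363270 for *Jak2*. The *Ifngr2* probe spans 1153 bases of the genome with its 60 bases, so it crosses at least 1 intron, and the other exon and UTR assignments were not analysed here.

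IEL replicate 2 lay beside the spleen samples in its erythroid, neutrophil and B cell markers and in its summed Paneth cell markers. It lay above them in its intestinal epithelial markers, and this bears on every value below. Marker genes of CD8αβ T cells were well above background on every array, with summed levels, in units of an array's 75th percentile, of 427 and 486 in IEL replicates 1 and 2 and of 490 and 474 in SPL replicates 1 and 2. Of these 6 genes, 2 (*Cd8a* and *Cd3g*) were above both SPL arrays on both IEL arrays, and 2 (*Cd8b1* and *Cd2*) were below. *Cd2* had log2 levels of 2.27 and 3.76 in IELs and of 4.14 and 4.15 in SPLs. Erythroid markers summed to 0.709 in IEL replicate 1, 52.7 in IEL replicate 2, 67.7 in SPL replicate 1 and 78.2 in SPL replicate 2. Across 27912 probes the log2 levels of IEL replicate 2 had a Pearson correlation of 0.992 with SPL replicate 1, its partner on slide 2, against 0.946 with IEL replicate 1. The correlation was 0.973 between IEL replicate 2 and SPL replicate 2, and 0.986 between the SPL samples. Paneth cell markers summed to 214 in IEL replicate 1 and to 7.52, 6.25 and 5.13 in IEL replicate 2, SPL replicate 1 and SPL replicate 2. Even so, 3 of 4 Paneth cell genes were above both SPL arrays on both IEL arrays. *Defa6*, for example, had log2 levels of 7.48 and 1.74 in IEL replicates 1 and 2 and of 0.28 and -5.90 in SPL replicates 1 and 2. The exception was *Lyz1*, at 4.66 and 1.97 in IELs and 2.30 and 2.35 in SPLs. Intestinal epithelial markers summed to 16.9, 3.94, 1.54 and 0.308 in the same order, with 7 of 7 genes above both SPL arrays on both IEL arrays. Markers of cells outside the sort gate were thus measured in both groups, and their part in the differences of the receptor genes was not tested. The study itself attributes the RNA of α-defensins, *Mmp7* and *Itln1* to the sorted IELs, from arrays and RT-PCR. It also detected MMP7 and a defensin protein in gated IELs by flow cytometry, and calls contamination by Paneth cells unlikely. In bulk RNA, fewer cells that express a gene and less RNA per cell cannot be told apart.

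**Figure D1:**
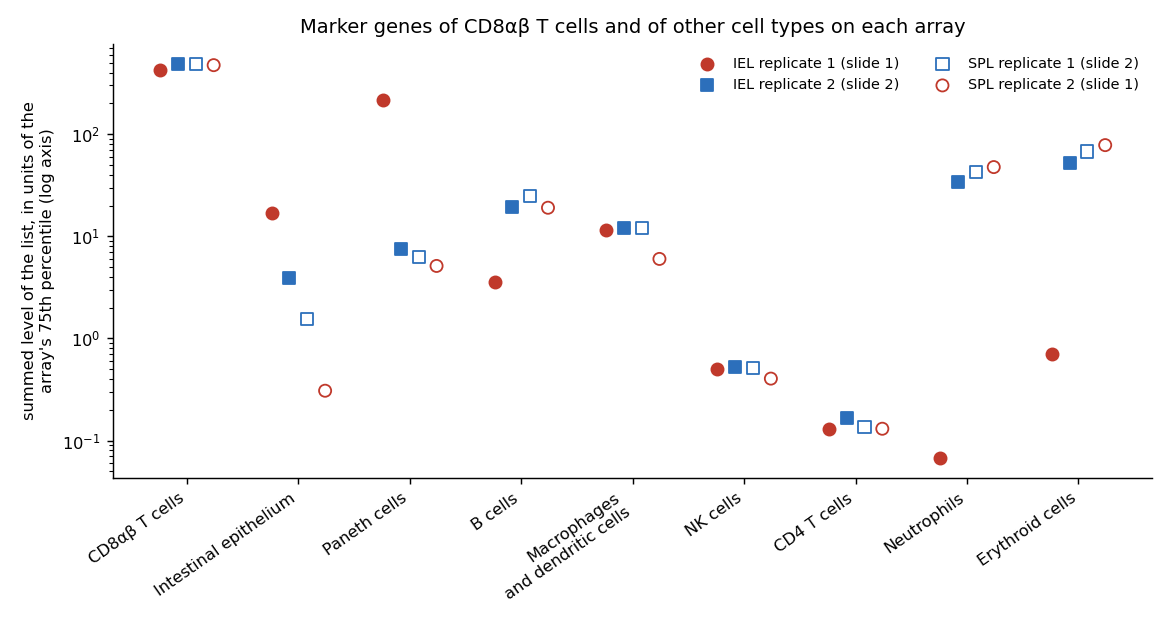
Summed levels of marker gene lists on each of the 4 arrays, in units of the array's 75th percentile on a log axis, with filled symbols for IELs, open symbols for SPLs, circles for slide 1 and squares for slide 2. IEL replicate 1 stands alone for the sums of Paneth cell (214), neutrophil (0.0672) and erythroid (0.709) markers. IEL replicate 2 lies beside the SPL arrays in these 3 sums, although 3 of 4 Paneth cell genes were above both SPL arrays on both IEL arrays.

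Levels are given as log2 values relative to the array's 75th percentile, in the order IEL replicate 1, IEL replicate 2, SPL replicate 1 and SPL replicate 2. Fold changes are IEL minus SPL from limma over 27937 probes of 41174, with Benjamini-Hochberg adjustment. *Il12rb1* and *Il12rb2*, the chains of the IL-12 receptor, were higher on both IEL arrays than on both SPL arrays, by 4.79-fold and 5.0-fold in the fit. *Il18r1* and *Ifngr2*, which encode the ligand-binding chain for IL-18 and the accessory chain for IFN-γ, were lower on both IEL arrays, by 5.81-fold and 4.17-fold. None of the 10 genes passed the adjusted threshold of 0.05, as 0% of all probes did in either direction. At an unadjusted p below 0.05, 2 of 10 genes were higher, against 4.64% of all probes, and 0 of 10 were lower, against 1.1%, while the methods' unpaired test called 0 of 10 in either direction at that unadjusted threshold, against 1.68% of probes higher and 1.25% lower. Without the doubtful IEL replicate 2, 5 of 10 genes passed as higher, against 8.54% of all probes, and 2 of 10 as lower, against 11%. That fit rests on 1 IEL sample, whose spread is assumed to equal that of the SPL pair, and was set apart because of the marker levels. The sample kept, IEL replicate 1, had the highest summed Paneth cell (214) and intestinal epithelial (16.9) markers of the 4 arrays. The part of these cells in the calls was not tested. Leaving out IEL replicate 1 instead, 0 of 10 passed, against 0% of all probes in either direction, and 1 of 10 had an unadjusted p below 0.05, against 6.91%. The fits without either SPL sample also called 0 of 10.

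**Figure D2:**
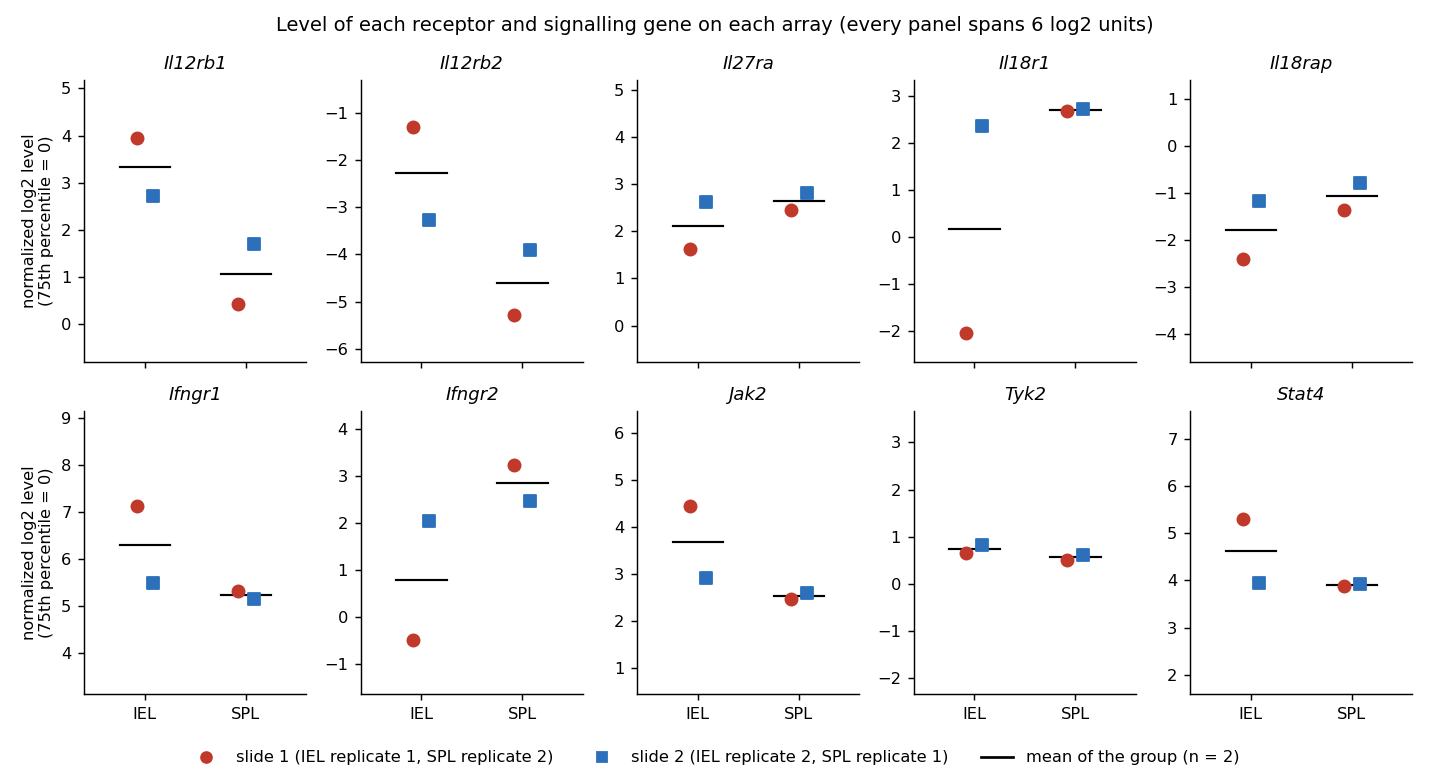
Log2 level of the brightest tested probe of each gene on each array (y axis, 75th percentile of the array at 0) in IELs and SPLs, with lines at the group means (n = 2). IEL replicate 1 lies farthest from the SPL arrays for every gene except *Tyk2*.

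*Il12rb1*, whose chain is shared by the receptors for IL-12 and IL-23, had levels of 3.94 and 2.71 in IELs and of 1.70 and 0.43 in SPLs. Its probe lies at chr8:73345189-73345248 on mm9. The IEL samples were the higher pair without overlap, and the gap between replicates was similar within both groups, at 2.34-fold in IELs and 2.41-fold in SPLs. The log2 fold change was 2.26 ± 0.64 (SE, n = 2 per group), with an adjusted p of 0.634 in limma. Within slide 1 the IEL array was 11.4-fold higher, and within slide 2 it was 2.01-fold higher. *Il12rb1* was the only member that reached a 2-fold difference on slide 2. That slide holds the IEL sample with spleen-like erythroid, neutrophil and B cell marker levels. Without IEL replicate 2 the log2 fold change was 2.87 with an adjusted p of 0.0313 in limma, and without IEL replicate 1 it was 1.65 with an adjusted p of 0.707.

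*Il12rb2* encodes the signalling chain that makes the receptor specific for IL-12 and that recruits STAT4. Its levels were -1.29 and -3.27 in IELs and -3.91 and -5.29 in SPLs, again without overlap. These were dim spots, with processed intensities of 128, 45, 31.8 and 15.4 units, and each was called well above background by the scanner software. The median of 153 negative control spots was between -2.06 and -1.69 units on the 4 arrays. The log2 fold change was 2.32 ± 0.85 (SE, n = 2 per group), with an adjusted p of 0.634 in limma. The IEL array was 16-fold higher on slide 1 and 1.56-fold higher on slide 2. Slide 1 held the higher of the IEL values and the lower of the SPL values, so this split depends on which samples shared a slide. Leaving out IEL replicate 2 moved the log2 fold change to 3.31 (limma adjusted p = 0.0264), and leaving out IEL replicate 1 moved it to 1.33 (limma adjusted p = 0.756). It was 3.01 without SPL replicate 1 and 1.63 without SPL replicate 2. The direction turned to -0.42 when the background was corrected with normexp, which also moved the median of all probes to -0.38. A second normexp fit, without the spots over 20 units under their local background, gave 1.25. Both normexp fits added an offset of 50 units, which is larger than the processed intensities of 45, 31.8 and 15.4 units.

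*Il27ra*, the IL-27 receptor chain at chr8:86554885-86554944 on mm9, overlapped between the groups. Its levels were 1.62 and 2.62 in IELs and 2.82 and 2.46 in SPLs, and the log2 fold change was -0.52 ± 0.42 (SE, n = 2 per group, limma adjusted p = 0.662). The fit without IEL replicate 2 gave -1.02 (limma adjusted p = 0.0677).

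*Il18r1* showed the largest gap between IEL samples among the members. Its probe at chr1:40557541-40557600 on mm9 gave levels of -2.05 and 2.36 in IELs and of 2.72 and 2.68 in SPLs. The SPL samples differed by 1.03-fold, whereas the IEL samples differed by 21.2-fold, with IEL replicate 2 close to the spleen level. The log2 fold change of -2.54 ± 1.51 (SE, n = 2 per group) had an adjusted p of 0.634 in limma. On slide 1 the IEL array was 26.4-fold lower, and on slide 2 it was 1.28-fold lower. Without IEL replicate 2 the log2 fold change was -4.74 with an adjusted p of 0.00327 in limma, the lowest adjusted p of the 10 genes in that fit. The fit without IEL replicate 1 gave -0.33, and normexp with all arrays gave -1.26. IEL replicate 1, the array with the low *Il18r1* level, was also the array with low neutrophil markers, which summed to 0.0672 there and to 34.3, 42.3 and 47.6 in IEL replicate 2, SPL replicate 1 and SPL replicate 2. B cell markers, at 3.54, 19.5, 24.9 and 19, and erythroid markers, at 0.709, 52.7, 67.7 and 78.2, were also lowest in IEL replicate 1. So were the NK cell marker *Ncr1* and the macrophage and dendritic cell markers *Csf1r*, *C1qa* and *Fcer1g*, whereas *Klrb1c*, *Cd68* and *Itgax* of the same lists were not. The part of any of these cell types in the *Il18r1* values was not tested.

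*Il18rap*, the accessory chain of the same receptor, overlapped between IELs and SPLs. Its tested probe had levels of -2.41 and -1.16 in IELs and of -0.78 and -1.35 in SPLs, and the log2 fold change was -0.72 ± 0.52 (SE, n = 2 per group, limma adjusted p = 0.639). The IEL array was lower on both slides, by 2.08-fold and 1.30-fold. In the fit without IEL replicate 2 the log2 fold change was -1.35 with an adjusted p of 0.0530 in limma, just outside the threshold. The second probe of this gene, at chr1:40582730-40582789 on mm9, had no array well above background and did not enter the test.

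*Ifngr1*, the ligand-binding chain for IFN-γ, had levels of 7.11 and 5.48 in IELs and of 5.15 and 5.32 in SPLs. The probe at chr10:19329923-19329982 on mm9 thus separated the groups, but the lower IEL value lay close to both SPL values. Its log2 fold change was 1.06 ± 0.60 (SE, n = 2 per group; limma adjusted p = 0.634). The difference was 3.47-fold on slide 1 and 1.26-fold on slide 2. When IEL replicate 2 was left out the log2 fold change was 1.88, with an adjusted p of 0.0137 in limma.

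*Ifngr2*, the partner chain, differed in the opposite direction, and both of its probes did so. The brighter probe, at chr16:91563982-91564041 on mm9, had levels of -0.48 and 2.04 in IELs and of 2.46 and 3.22 in SPLs. The second probe, whose sequence is given above, had levels of -1.95 and -0.04 in IELs and of 0.42 and 1.41 in SPLs. On either probe the IEL arrays were the lower pair and IEL replicate 1 was the lowest. The log2 fold changes were -2.06 ± 0.92 and -1.91 ± 0.76 (SE, n = 2 per group), each with an adjusted p of 0.634 in limma. The brighter probe was 13-fold lower in IELs on slide 1 and 1.34-fold lower on slide 2. Without IEL replicate 2 the log2 fold changes were -3.32 and -2.86, with adjusted p-values of 0.0108 and 0.0207 in limma. Leaving out IEL replicate 1 instead gave -0.80 and -0.96, with adjusted p-values of 0.769 and 0.771, so the brighter probe was then 1.74-fold lower. Under normexp the brighter probe had -1.26.

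**Figure D3:**
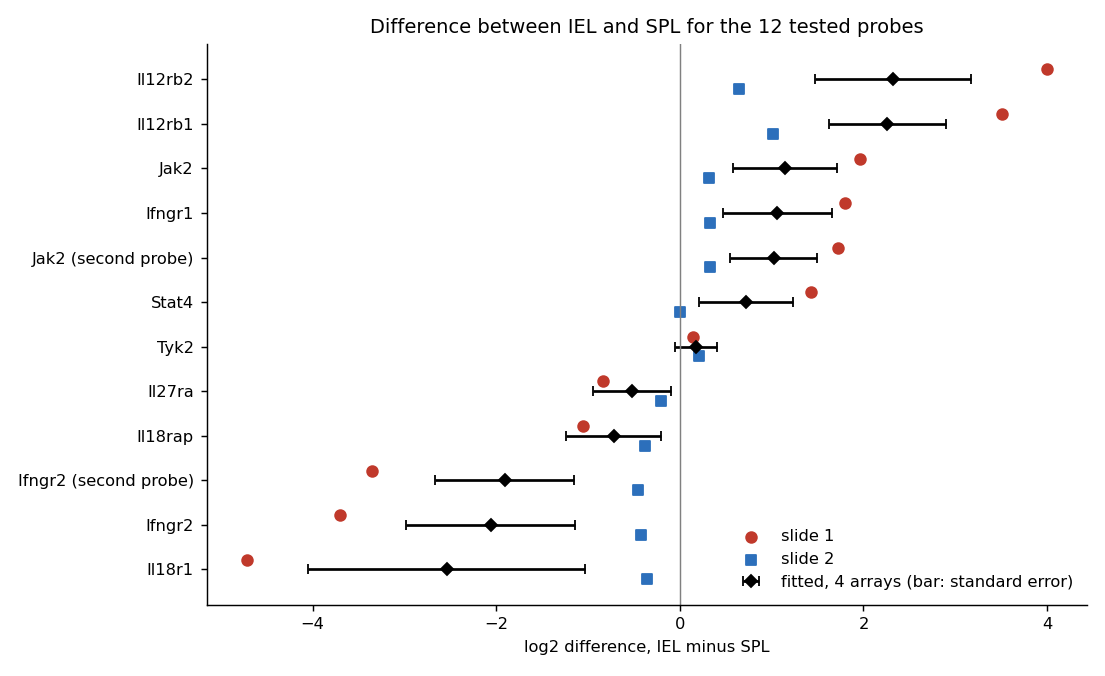
Log2 difference between IELs and SPLs (x axis) for the 12 tested probes, fitted over 4 arrays (black diamonds, bars give the SE) and within slide 1 (red circles) and slide 2 (blue squares). The slide 1 values reach from -4.72 for *Il18r1* to 4.0 for *Il12rb2*, whereas the slide 2 values of the brightest probe of each gene lie between -0.42 and 1.01.

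*Jak2* encodes a kinase used by both the IL-12 and the IFN-γ receptor, and both of its probes were higher on the IEL arrays. The brighter probe, at chr19:29386361-29386420 on mm9, had levels of 4.43 and 2.91 in IELs and of 2.59 and 2.47 in SPLs. The SPL samples were 1.09-fold apart and the IEL samples 2.88-fold, with IEL replicate 1 the higher. Its log2 fold change was 1.14 ± 0.56 (SE, n = 2 per group, limma adjusted p = 0.634), and that of the second probe was 1.02. The brighter probe was 3.91-fold higher on slide 1 and 1.25-fold higher on slide 2. Leaving out IEL replicate 2 gave log2 fold changes of 1.91 and 1.64, with adjusted p-values of 0.0129 and 0.0178 in limma.

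*Tyk2*, the kinase that binds the *Il12rb1* chain, was the member with the smallest difference. Its probe at chr9:20909321-20909380 on mm9 had levels of 0.65 and 0.81 in IELs and of 0.61 and 0.51 in SPLs. The fitted log2 fold change was 0.18 ± 0.23 (SE, n = 2 per group, limma adjusted p = 0.767), and without IEL replicate 2 it was 0.10 (limma adjusted p = 0.802). *Tyk2* was also the only member whose difference was no larger on slide 1 than on slide 2, at 1.11-fold and 1.15-fold.

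*Stat4*, the main transcription factor activated by IL-12, had levels of 5.31 and 3.94 in IELs and of 3.93 and 3.87 in SPLs at chr1:52163802-52163861 on mm9. IEL replicate 1 stood above the other 3 arrays, which lay close together. The log2 fold change was 0.72 ± 0.52 (SE, n = 2 per group, limma adjusted p = 0.639). The difference was 2.70-fold on slide 1 and 1.00-fold on slide 2. Leaving IEL replicate 2 out, the log2 fold change was 1.40, with an adjusted p of 0.0229 in limma.

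Across the 10 genes, both IEL arrays lay above both SPL arrays for 6, against 24.4% of all probes, and below them for 2, against 24.6%. The median log2 fold change of the members was 0.45, against -0.0007 over all tested probes, and covered values from -2.54 to 2.32. On slide 1, 5 of 10 genes were at least 2-fold higher in the IEL array, against 11.8% of all probes, and 3 of 10 were at least 2-fold lower, against 13.7%. On slide 2, 1 of 10 was at least 2-fold higher, against 2.46%, and 0 of 10 were at least 2-fold lower, against 0.731%. The IEL samples differed from each other by at least 2-fold for 8 of 10 genes, against 20.7% of all probes, and the SPL samples for 2 of 10, *Il12rb1* and *Il12rb2*, against 3.93%. The spread between the IEL replicates was thus the larger one for most members. Intestinal epithelial markers also differed between the SPL samples, with sums of 1.54 in replicate 1 and 0.308 in replicate 2. Their part in the SPL gaps of *Il12rb1* and *Il12rb2* was not tested. The median size of the difference was 1.45 log2 units between the IEL replicates and 0.26 between the SPL replicates. Leaving out IEL replicate 1 moved the median log2 fold change of the members to 0.14, with 0.25 for *Ifngr1*, 0.38 for *Jak2*, 0.04 for *Stat4*, -0.10 for *Il18rap* and -0.02 for *Il27ra*, and leaving out IEL replicate 2 moved the median to 0.75.

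**Figure D4:**
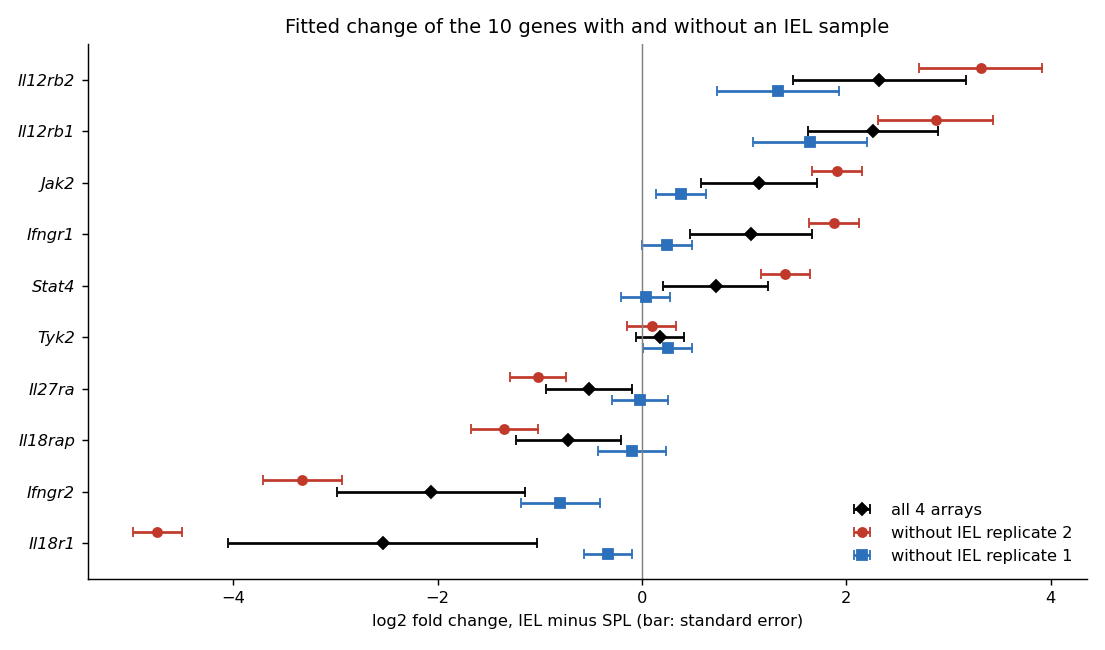
Fitted log2 fold change (x axis, bars give the SE) of the 10 genes with all 4 arrays (black), without IEL replicate 2 (red) and without IEL replicate 1 (blue). *Il18r1* is at -4.74 in the red fit and at -0.33 in the blue one, while *Tyk2* stays between 0.10 and 0.25.

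Other genes of these pathways were taken from a list of 40 ligands, partner chains, signalling genes and inhibitors, of which 36 were tested. None of the 36 passed in the fit over 4 arrays, their median log2 fold change was 0.003, and the IEL arrays lay above the SPL arrays for 10, against 24.4% of all probes, and below them for 11, against 24.6%. Without IEL replicate 2, 7 of the 36 were higher and 4 were lower at the adjusted threshold, against the 8.54% and 11% of all probes. *Ifng*, the gene of IFN-γ itself, had levels of 6.13 and 4.93 in IELs and of 4.19 and 3.19 in SPLs. *Tbx21*, which encodes T-bet, the factor that drives *Ifng* and *Il12rb2* in T cells, had levels of 5.40 and 4.01 in IELs and of 3.12 and 1.6 in SPLs. Both genes separated the groups, with log2 fold changes of 1.84 ± 0.58 and 2.35 ± 0.73 (SE, n = 2 per group) and adjusted p-values of 0.634 in limma. On slide 2 the differences were 0.73 for *Ifng* and 0.89 for *Tbx21*, in log2 units.

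Among the STAT and kinase genes, *Stat3*, used by the IL-27 and IL-6 receptors, had a log2 fold change of 1.31 with levels of 6.69 and 5.13 in IELs and of 4.72 and 4.47 in SPLs. *Jak1*, the kinase of the IFNGR1 chain, had -0.40, which turned to 0.08 under normexp. *Irak2*, a kinase below MyD88 in IL-18 signalling, had levels of 3.20 and 0.82 in IELs and of 0.25 and -0.12 in SPLs, and its log2 fold change was 1.95. *Gadd45b*, a stress-inducible gene that IL-12 and IL-18 induce in T cells, had levels of 6.32 and 4.89 in IELs and of 3.91 and 3.62 in SPLs, with a log2 fold change of 1.84. All 3 of *Stat3*, *Irak2* and *Gadd45b* separated the groups, with adjusted p-values of 0.634 in limma. Of the ligand subunits, *Il12a*, the p35 chain of IL-12, had -1.30 with values well above background on 3 of 4 arrays and -0.13 in the second normexp fit, and *Ebi3*, a chain of IL-27, had -1.07 with overlap between the groups.

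**Figure D5:**
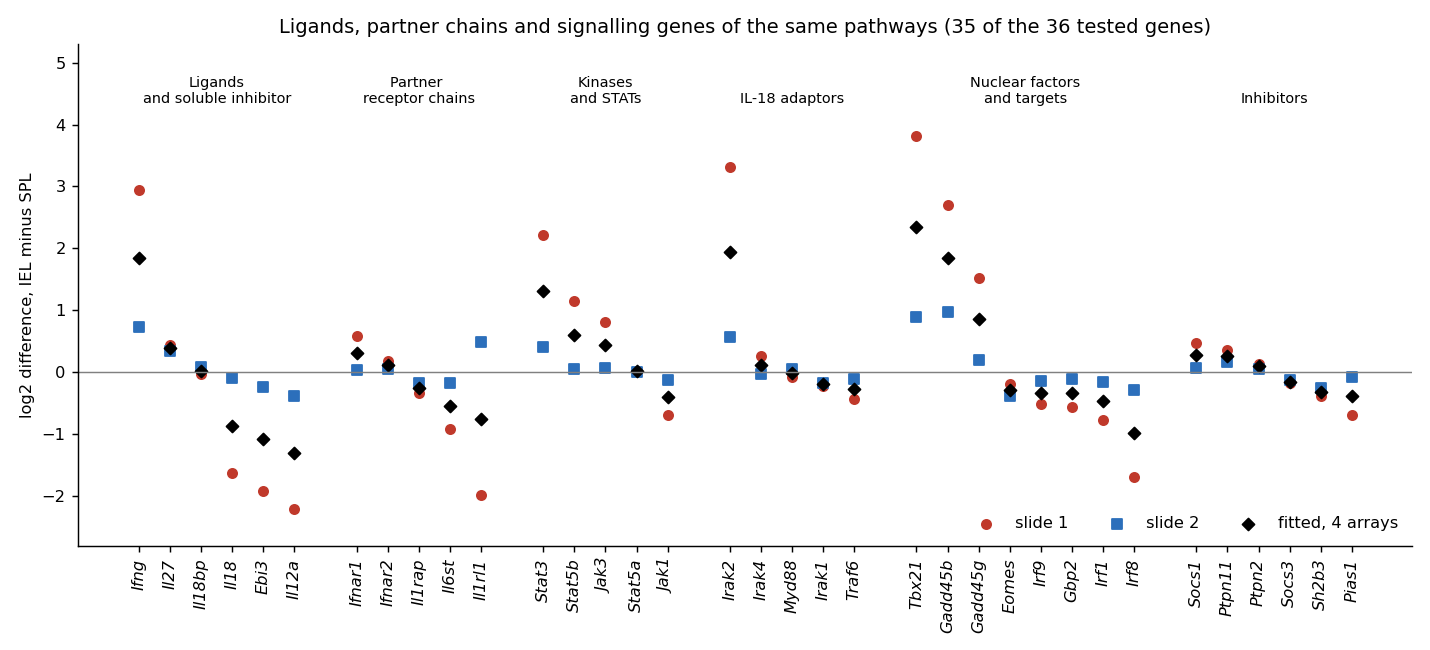
Log2 difference between IELs and SPLs (y axis) for 35 of the 36 tested genes of the pathway list, grouped by role, within slide 1 (red circles), within slide 2 (blue squares) and fitted over 4 arrays (black diamonds). *Tbx21* (2.35), *Irak2* (1.95), *Gadd45b* (1.84) and *Ifng* (1.84) lie highest and *Il12a* (-1.30) lowest.

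The genes whose pattern over the 4 arrays was most like that of *Il12rb2*, by Euclidean distance of centered log2 levels among 13713 genes, were *Pgk2*, *Cdc42ep1*, *Wwc1*, *Spats2* and *Pdcd1lg2*, at distances from 0.174 to 0.234. Likeness over 4 arrays is a description and is not evidence of shared regulation.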

How the data were processed

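RNA of 4 samples (2 IEL, 2 SPL) was measured on Agilent 1-color arrays. The deposited scanner files give a background-subtracted intensity per spot with no scaling between arrays, from Feature Extraction (10.7.3.1 per the file headers, 10.7.1.1 per the submitters' processing notes). A second deposited table holds log2 values that look quantile-normalized and served as an alternative. The methods name PrimeView chips.

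The log2 processed intensity was scaled by each array's 75th percentile (312, 435, 479 and 605 units for IEL replicates 1 and 2 and SPL replicates 1 and 2), and spots with an outlier mark were left out. Tested probes were those called well above background on both arrays of a group. For probes with several spots, this meant at least 50% of the spots kept, a rule chosen after the files were seen and 4 versions were compared, and each member probe has 1 spot. The fit of IEL against SPL used limma 3.58.1 (R 4.3.3, with files read by the data.table package, version 1.17.8) with no block, two-sided, on 2 residual degrees of freedom, with Benjamini-Hochberg adjustment at 0.05, and the model was tested on simulated data. The brightest tested probe stands for a gene. The number of arrays limits the precision, and p-values measure the spread between these samples only. Alternatives changed the scaling, background correction, filter, variance model, test, block, marked spots and probe choice, took the deposited log2 values, and left out each sample. Named genes are all members, the pathway genes with a log2 fold change of at least 1 in size, *Ifng*, *Jak1* and *Tbx21*, and the 5 genes most like *Il12rb2*, and 1 gene of the pathway list is counted but not reported here.

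The members, lists and alternatives were chosen with earlier results of these data known. Replicate numbers did not pair the samples (correlation of deviations across probes of -0.025).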

Additional observations from a re-analysis of the deposited data

How the results depend on the processing

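All alternatives other than leaving out a sample called 0 member genes, and all members but *Il12rb2* kept their direction in each of them. Normexp background correction turned *Il12rb2* to -0.42 and *Jak1* to 0.0803 and moved the pathway median to 0.16, the member median to 0.14, *Il18r1* and *Ifngr2* each to -1.26 and *Il27ra* to -0.04, and it moved the median of all probes to -0.38; a second normexp fit, added after seeing the data, left out spots over 20 units below their local background and gave a median of all probes of 0.15, with 1.25 for *Il12rb2* and -0.13 for *Il12a*. Leaving out each sample in turn gave 0 to 2384 probes higher and 0 to 3059 lower, 0 to 7 member genes called, 0 to 11 pathway genes called and pathway medians from -0.13 to -0.00447, and the highest counts came without IEL replicate 2. With the replicate number as a block, 0 probes passed in either direction and 0 member genes, with a member median of 0.45, and the slide as a block also gave 0. The smallest adjusted p in limma was 0.138 with the replicate block, 0.597 with the slide block and 0.634 without a block. *Il12rb1* and *Il12rb2* had adjusted p-values of 0.207 and 0.218 in limma with the replicate block. With 2 samples per group the smallest exact permutation p is 0.333. Signal over background limits dim probes such as that of *Il12rb2*, at 15.4 to 128 units.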
